A study of Mus musculus with 8 samples.

Results

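The microRNAs miR-103 and miR-107 were measured in mature mouse sperm as the fragments whose annotation named mmu-mir-103, mmu-mir-107 or both and no other RNA, with the number of the gene copy ignored. Of 5724730 distinct fragments in 8 libraries, 39 met this rule: 22 named mmu-mir-103 only, 9 named mmu-mir-107 only and 8 named both. No fragment named a member together with another RNA, so 0 were left out for that reason. The number found in a single library ranged from 11 in control 3 to 27 in activated 1.

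The study asked how AgRP neurons, hypothalamic cells that drive feeding, act on the small RNA of sperm. Sperm came from the caudae epididymides of 4 Agrp Cre/+ mice (activated) and 4 Agrp +/+ mice (control), 1 library per mouse. At 8 weeks of age all males had received, in the arcuate nucleus, an adeno-associated virus with a Cre-dependent hM3Dq-mCherry DREADD under a neuronal promoter, so the receptor could be made only where Cre was present. After 3 weeks all mice lost food for 1 h, were given the DREADD ligand CNO at 1 mg/kg, and gave sperm 4 h later. The groups thus differed in the Cre allele and in the receptor it permits, while surgery, virus and CNO were common to both. The libraries held 14903635, 17489698, 14757501 and 9409491 reads in activated 1 to 4 and 12421068, 23123740, 9297271 and 14348060 reads in control 1 to 4.

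MicroRNAs are cut from hairpin precursors and guide Argonaute proteins to messenger RNAs, mainly through the seed, bases 2 to 8 of the mature strand. Those of the miR-103 and miR-107 family lie in introns of the pantothenate kinase genes, whose enzymes start the synthesis of coenzyme A, and the family is known for its effects on insulin sensitivity in liver and adipose tissue. In GRCm38.p6 the hairpin of Mir103-1 lies at chr11:35782396-35782481 on the plus strand, in intron 5 of Pank3. Mir103-2 lies at chr2:131288052-131288137 on the plus strand, in intron 5 of Pank2, and Mir107 at chr19:34820687-34820773 on the minus strand, in intron 5 of Pank1.

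The mature strands from RefSeq (GRCm38.p6) are shown because their likeness sets what a read can tell. Capitals mark the seed.
mmu-miR-103-3p: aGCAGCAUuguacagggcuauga
mmu-miR-107-3p: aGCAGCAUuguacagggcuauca
mmu-miR-103-1-5p: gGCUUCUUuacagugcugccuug
mmu-miR-103-2-5p: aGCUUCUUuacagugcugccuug
mmu-miR-107-5p: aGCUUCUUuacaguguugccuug
mmu-miR-16-5p: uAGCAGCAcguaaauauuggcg
The 3p strands of miR-103 and miR-107 are 23 nt long and differ by G22C, counted from 1 at the 5′ end of miR-103-3p. Their first 21 bases are the same, so a read that stops at or before base 21 names both members. Of 1679 mature mouse miRNAs in RefSeq, only these 2 carry the seed GCAGCAU. In 10 others, miR-16-5p and miR-15 strands among them, bases 2 to 8 are the first 7 bases of miR-103-3p, a seed shifted by 1 base. The 2 copies of miR-103 give the same 3p strand and 5p strands that differ by G1A.

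The reads themselves came almost wholly from the 3p strand. The 6 member fragments of highest mean RPM, as deposited, and the 23-nt mir-107 fragment are shown with the bases after position 21 in capitals, since these tell the members apart.
mir-103, 23 nt: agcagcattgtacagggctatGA
mir-103, 22 nt: agcagcattgtacagggctatG
shared, 21 nt: agcagcattgtacagggctat
mir-103, 24 nt: agcagcattgtacagggctatGAA
mir-103, 25 nt: agcagcattgtacagggctatGAAA
mir-107, 22 nt: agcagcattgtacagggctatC
mir-107, 23 nt: agcagcattgtacagggctatCA
Over the 8 libraries the first held 80552 reads, the second 7680, the third 3842, the fourth 3471, the fifth 1391, and the mir-107 fragments 481 and 326. The 23-nt fragment equal to miR-103-3p was the leading form of mir-103, while for mir-107 the 22-nt form, 1 base short of the annotated strand, was the more abundant.

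Reads of the whole family were scaled by the total of each library (RPM). Activated 1 to 4 held 1197, 850, 661 and 907 RPM. Control 1 to 4 held 659, 906, 314 and 1106 RPM. The groups overlapped: activated 1 was the highest library and control 3 the lowest, and activated 4 and control 2 lay next to each other. The mean was 904 ± 222 RPM in activated mice and 747 ± 341 RPM in controls (SD, n = 4 each), a ratio of 1.21 (two-sided exact permutation test, p = 0.429, adjusted over 6 tests 0.857). With 4 mice against 4 the smallest p of this test is 0.0286. A bulk library cannot tell fewer cells that hold an RNA from less of that RNA per cell.

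The 8 libraries also fell into 2 sets of 4 by their share of mitochondrial rRNA. It was 0.123% to 0.182% of reads in activated 1 and 4 and control 2 and 4, and 1.09% to 1.89% in the others. The family lay at 906 to 1197 RPM in the first set and at 314 to 850 RPM in the second, without overlap. Each set holds 2 activated and 2 control libraries. Within the set low in mitochondrial rRNA the ratio of activated to control means was 1.05, and within the other it was 1.55, in which control 3 is 1 of the 2 controls. The part of this split in the result was not tested beyond these values and a fit with the set as a covariate.

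The miRNA share of a library moved in the same way, from 17.8% of reads in control 3 to 47.1% in control 4. As a percentage of miRNA reads, the family made up 0.316%, 0.294%, 0.288% and 0.242% in activated 1 to 4. The values were 0.254%, 0.273%, 0.176% and 0.235% in control 1 to 4. On this scale 3 activated libraries lay above all controls and activated 4 lay among them. The ratio of means was 1.22 (two-sided exact permutation test, p = 0.0857).

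**Figure D1:**
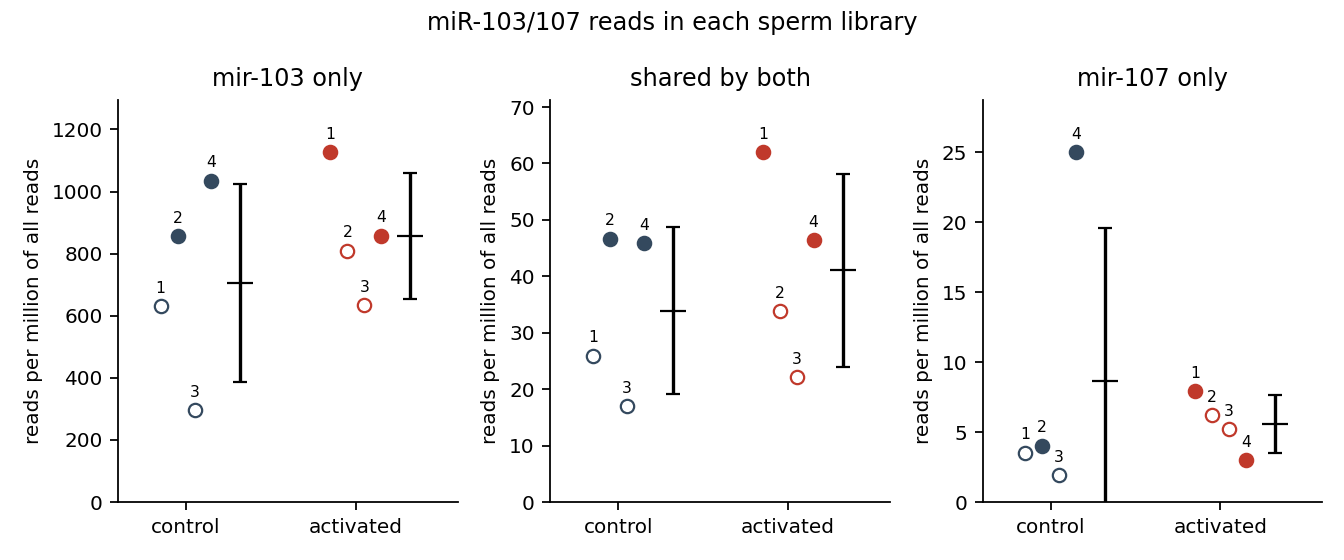
RPM (vertical axes, linear, from 0) in each control and activated library for fragments naming mir-103 only, both members or mir-107 only. Points are libraries numbered by replicate, filled where the Mt_rRNA class is below 0.5% of reads and open where above. Bars are mean ± SD of 4 libraries, the control bar for mir-107 being clipped at 0. Groups overlap in all 3 panels and control 4 stands at 25.02 RPM of mir-107.

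mir-103 supplied most of the reads. Fragments naming mir-103 only held 1127, 810, 634 and 857 RPM in activated 1 to 4 and 630, 856, 295 and 1035 RPM in control 1 to 4. The order of libraries was close to that of the sum, and the groups overlapped. The means were 857 ± 204 RPM in activated mice and 704 ± 319 RPM in controls (SD, n = 4 each), a ratio of 1.22 (two-sided exact permutation test, p = 0.400, adjusted over 6 tests 0.857).

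Fragments that name both members, none of them longer than 21 nt, held 62.0, 33.8, 22.2 and 46.4 RPM in activated 1 to 4. In control 1 to 4 they held 25.9, 46.7, 17.0 and 45.9 RPM. Activated 1 was highest, control 3 lowest, and the groups overlapped. Their ratio of means was 1.21 (two-sided exact permutation test, p = 0.571).

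mir-107 was scarce. It held 7.92, 6.23, 5.22 and 2.98 RPM in activated 1 to 4, which are 118, 109, 77 and 28 reads. In control 1 to 4 it held 3.54, 4.02, 1.94 and 25.02 RPM, which are 44, 93, 18 and 359 reads. Control 4 alone stood far above the other 7 libraries, and the other 3 controls lay below activated 1 to 3. The means were 5.59 ± 2.07 RPM in activated mice and 8.63 ± 10.96 RPM in controls (SD, n = 4 each), a ratio of 0.647 (two-sided exact permutation test, p = 0.943). Without control 4 the ratio was 1.76 (exact permutation test, p = 0.171), so that 1 library set the direction. The ratio of geometric means over all 8 libraries was 1.03 (exact permutation test, p = 0.971).

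Control 4 also stood apart in miRNAs of other cell types, listed by their usual tissue. The 7 epithelial miRNAs, led by mir-200c, summed to 19420 RPM in control 4 and to 1085 to 3476 RPM in the other 7 libraries. The 5 miRNAs of muscle and vessel, led by mir-143, summed to 36472 RPM in control 4 and to 180 to 524 RPM elsewhere. All 7 and all 5 were detected. The part of other cells in the mir-107 value was not tested.

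The 14 miRNAs of testis and sperm, led by mir-34b, were all detected and summed to 43104 ± 10509 RPM in activated mice and 35184 ± 8689 RPM in controls (SD, n = 4 each). They lay between 24363 RPM in control 3 and 52804 RPM in activated 1. The list chosen for the labelled cell type thus held reads in every library, which does not measure how pure the sperm were. For leukocytes all 6 miRNAs were detected, led by mir-142a, with sums of 394 to 979 RPM. For erythrocytes 3 of 4 listed names were found, led by mir-451a. Their sum was 92.8 ± 72.2 RPM in activated mice and 334 ± 183 RPM in controls (SD, n = 4 each), and its part in the values of the family was not tested. This sum leaves out most reads of mir-486, a further erythroid miRNA, because the files name it mir-486a and mir-486b, mostly on rows that carry both names. Over all such rows it held 51.8 ± 31.8 RPM in activated mice and 266.6 ± 158 RPM in controls (SD, n = 4 each).

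mir-103 exceeded mir-107 in all 8 libraries. The ratio of their reads was 142, 130, 121 and 288 in activated 1 to 4 and 178, 213, 153 and 41.4 in control 1 to 4, with a geometric mean of 141 (two-sided exact sign-flip permutation test over libraries, p = 0.00781, the smallest 8 libraries allow). Control 4 had the lowest ratio and activated 4 the highest. mir-107 made up 0.656% ± 0.212 of the reads that name 1 member in activated mice and 1.01% ± 0.903 in controls (SD, n = 4 each; exact permutation test, p = 0.771). Without control 4 the control mean was 0.559% ± 0.0917 (SD, n = 3) and the direction turned (exact permutation test, p = 0.514). mir-103 has 2 gene copies and mir-107 has 1.

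Reads seldom told the copies of mir-103 apart. Fragments naming only mir-103-2 held 1431 reads of the 3p arm, in all 8 libraries, and 74 reads of the 5p arm, whereas mir-103-1 alone was named by 1 fragment with 5 reads. After the 3p strand the hairpin of Mir103-1 goes on with AGG and that of Mir103-2 with AAG. A base A added to the 24-nt form gives the same letters as the Mir103-2 hairpin, so the 1391 reads of the 25-nt form cannot be assigned to that copy with certainty.

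The 5p arm was nearly absent. It gave 87 reads in 10 fragments, 0.0879% of the 98931 member reads, against 98844 reads in 29 fragments of the 3p arm. The 5p share lay between 0.0567% in control 4 and 0.110% in control 1. No read equalled an annotated 5p strand, a count of 0 that allows 0.0259 RPM over all libraries (3 counts, counting error only). The leading 5p fragment was 24 nt long, with 55 reads.
5p arm, 24 nt: agcttctttacagtgctgccttgt

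Within the 3p arm the start was fixed and the end was not. From the annotated first base came 99.6% of 3p reads, and 0.380% began 2 bases later, which moves the seed. Of the 3p reads from the annotated start, 82.2% were 23 nt long, 8.29% 22 nt, 3.90% 21 nt, 3.55% 24 nt and 1.42% 25 nt. Among those naming mir-107 only, 57.6% were 22 nt and 39.0% were 23 nt.

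Among reads that carry a member name, the share of 3p reads that reached the annotated end was 86.7%, 88.4%, 89.8% and 88.1% in activated 1 to 4 and 87.9%, 86.8%, 85.5% and 84.7% in control 1 to 4. Activated 3 was highest and control 4 lowest, and activated 1 lay among the controls. The means were 88.3% ± 1.28 and 86.2% ± 1.41 (SD, n = 4 each), a difference of 2.07 percentage points (two-sided exact permutation test, p = 0.0857, adjusted over 6 tests 0.514).

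**Figure D2:**
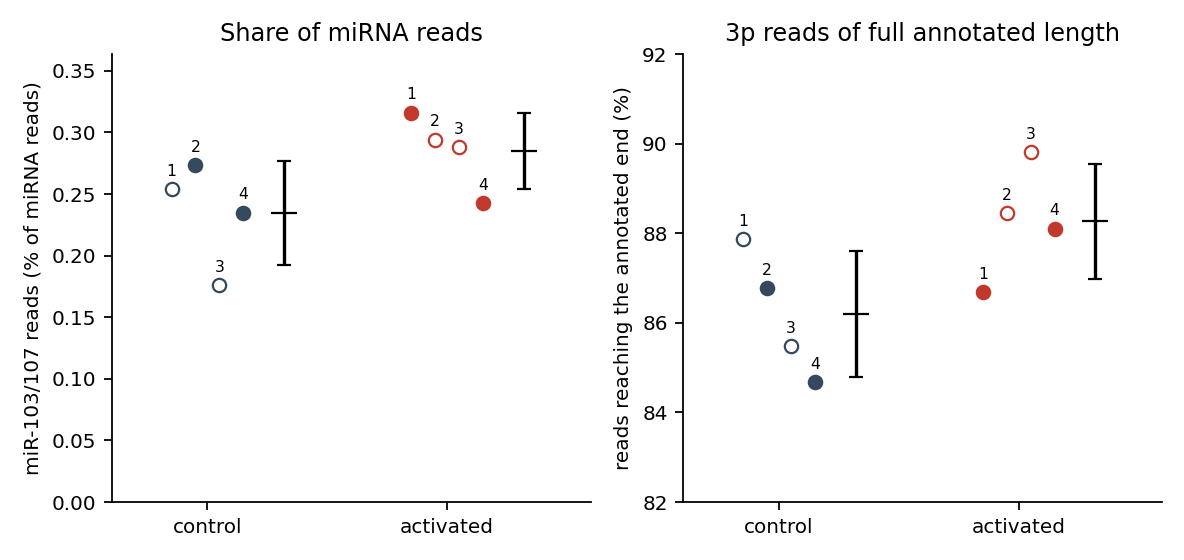
The family as a percentage of miRNA reads (left, from 0) and the percentage of named 3p reads from the annotated start that reach the annotated end (right, axis from 82 to 92) in each control and activated library. Points are libraries numbered by replicate, filled where the Mt_rRNA class is below 0.5% of reads. Bars are mean ± SD of 4 libraries. The groups overlap in both panels.

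Many reads with the sequence of the family did not carry its name. A search made after the data were examined took the fragments that begin with the 21 common bases and name no member. It found 126 fragments with 90913 reads, against 97776 reads in the member fragments of the same start and at least that length. None matched the genome, and 99.8% of the reads were annotated as piRNA. They departed from the hairpin at the 3′ end, and for 97.1% of them the added bases were T only. An A added after base 22 or 23 equals the hairpin's next base and counts as matched, so this share cannot weigh T against A there. The leading unnamed fragments are shown with the bases that do not match the hairpin in capitals.
22 bases matched, 57892 reads: agcagcattgtacagggctatgT
23 bases matched, 19639 reads: agcagcattgtacagggctatgaT
22 bases matched, 4477 reads: agcagcattgtacagggctatgTT
23 bases matched, 1896 reads: agcagcattgtacagggctatgaTT
21 bases matched, 1682 reads: agcagcattgtacagggctatT
24 bases matched, 1302 reads: agcagcattgtacagggctatgaaT
Untemplated uridine at the 3′ end of miRNAs, read as T in sequencing, is a known modification made by terminal uridylyltransferases. The source of the bases found here was not tested.

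The added T depended on where the matched part ended. Of mir-103 reads whose match ended at base 22, and which thus lack the hairpin's next base, 88.2% went on with T, with a range of 83.5% to 90.4% over libraries. Of those whose match ended at base 23 it was 21.6%, with a range of 17.4% to 24.9%. The contrast was smaller when reads with longer matches were counted too: T followed base 22 in 34.9% of all 181006 mir-103 reads that matched at least so far (32.5% to 36.5% over libraries), and base 23 in 20.3% of 109401 (16.5% to 23.4%). On either count the ranges of mir-103 did not overlap. For mir-107 the shares of reads whose match ended there were 53.4% after base 22 and 20.7% after base 23, on 1046 and 416 reads. Over libraries they ran from 46.7% to 76.5% and from 0% to 44.4%, ranges that did not overlap. Some libraries hold few such reads, with 8 of the 23-nt mir-107 form in control 3 and 10 in activated 4. Of all mir-107 reads that matched at least so far the shares were 36.8% (29.5% to 57.8% over libraries) and 18.1% (0% to 38.7%), ranges that overlapped.

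**Figure D3:**
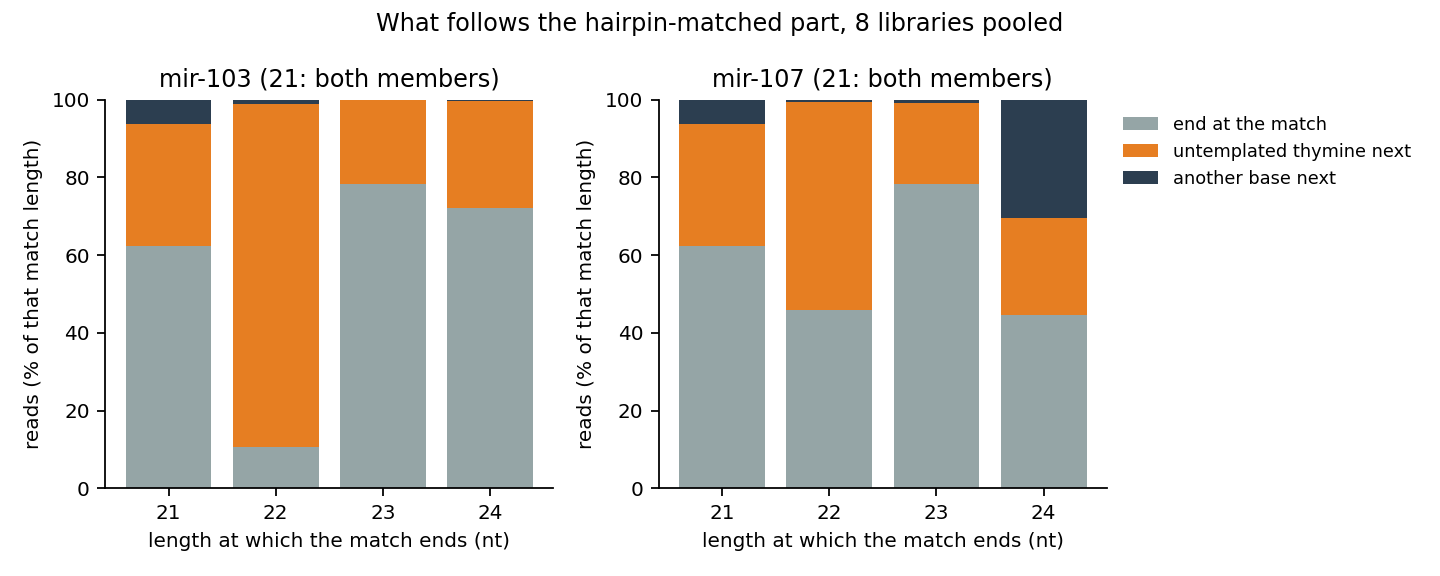
Reads whose match to the mir-103 (left) or mir-107 (right) hairpin from the 3p start ends at 21 to 24 nt (horizontal axis), longer matches being counted at their own length, as the percentage (vertical axis, from 0 to 100) that end there, go on with an untemplated thymine or go on with another base; reads of 8 libraries are pooled and the bar at 21 nt holds both members. Thymine follows in 88.2% of mir-103 reads whose match ends at base 22 and in 21.6% of those whose match ends at base 23, and the mir-107 bar at 24 nt rests on few reads.

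Unnamed reads made up 48.4%, 49.7%, 49.0% and 51.5% of such 3p reads in activated 1 to 4. In control 1 to 4 they made up 47.9%, 48.2%, 49.7% and 43.5%. Control 4 was lowest, activated 4 highest, and the groups overlapped (means 49.7% ± 1.36 and 47.3% ± 2.67, SD, n = 4 each; two-sided exact permutation test, p = 0.171). With these reads added, the ratio of activated to control RPM of the family was 1.28 (exact permutation test, p = 0.400). With them counted, the share of 3p reads that match the hairpin through the annotated end was 56.9%, 58.1%, 59.97% and 57.1% in activated 1 to 4 and 59.3%, 57.9%, 56.4% and 58.3% in control 1 to 4. The groups overlapped, at 58.0% ± 1.40 and 58.0% ± 1.22 (SD, n = 4 each; two-sided exact permutation test, p = 1), so the difference of 2.07 percentage points among named reads fell to 0.0456.

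A like share was computed for each mature miRNA whose beginning held at least 100 RPM, with its last 2 bases free to vary and only fragments seen in at least 4 libraries. It sets reads with no genome match and no miRNA name against these plus the reads that name a miRNA, and leaves out reads that match the genome under another name. Over 110 such strands the median was 17.3%, with a range of 1.38% to 87.6%. The beginning of miR-103-3p used here is that of miR-107-3p too, so its value also holds mir-107 and shared reads. miR-103-3p, at 48.1%, ranked 12th from the top, between miR-743a-5p at 48.8% and let-7b-5p at 45.3%. The highest was miR-652-3p.

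**Figure D4:**
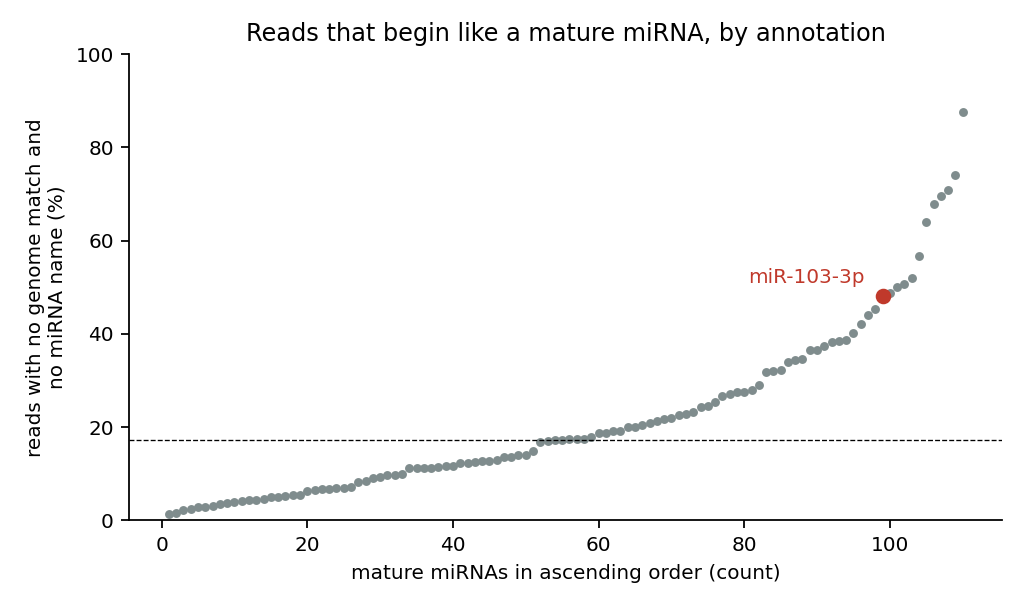
Reads that begin like a mature miRNA, match no genome position and name no miRNA, as a percentage of these plus the reads with that beginning that name a miRNA (vertical axis), for 110 mature miRNAs in ascending order (horizontal axis). Each point is 1 miRNA over 8 libraries, the dashed line is the median of 17.3%, and miR-103-3p stands at 48.1%. Its point includes reads of miR-107-3p, which has the same beginning.

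Among all RNA species, fragments summed by annotated RNA, 587 reached 50 counts in 4 or more libraries and were tested with edgeR, a call needing an adjusted p below 0.05 together with a log2 fold change beyond 1. Of the 3 member species 0 were called, against a background of 0% (0 of 587 called by edgeR; before adjustment, p was under 0.05 for 10 higher and 38 lower, of which 4 and 29 also passed the fold change minimum; DESeq2 called 3, all lower). The log2 fold change was 0.27 for mir-103 (SE 0.373, edgeR adjusted p = 0.715), -0.69 for mir-107 (SE 0.798, adjusted p = 0.677) and 0.23 for the shared species (SE 0.383, adjusted p = 0.750). The median over all species tested was -0.07, with 270 higher and 317 lower, and over the 247 species that name 1 miRNA only it was 0.14, with 148 higher and 99 lower. For mir-107 it turned to 0.89 without control 4 (adjusted p = 0.443).

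Of 39 member fragments 6 passed the count minimum, and 0 were called by edgeR, against a background of 0.505% (61 of 12077 fragments). In the same fit 0 of the 6 had an unadjusted p under 0.05, a level that 377 higher and 497 lower fragments reached in all. DESeq2 called 240 of all fragments. The log2 fold changes of the 6 ran from -0.89 for the 22-nt mir-107 form to 0.57 for the 25-nt mir-103 form, 4 of them above 0. The 25-nt form held 14.7 ± 1.31 RPM in activated mice and 9.24 ± 2.31 RPM in controls (SD, n = 4 each; edgeR adjusted p = 0.943). In RPM its libraries did not overlap between groups, but how many of the 12077 fragments tested separate in this way was not counted. The 23-nt fragment equal to miR-103-3p had a log2 fold change of 0.19 (SE 0.496, edgeR adjusted p = 0.999). Of the unnamed fragments with T ends and the like, 8 were tested and 0 called.

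**Figure D5:**
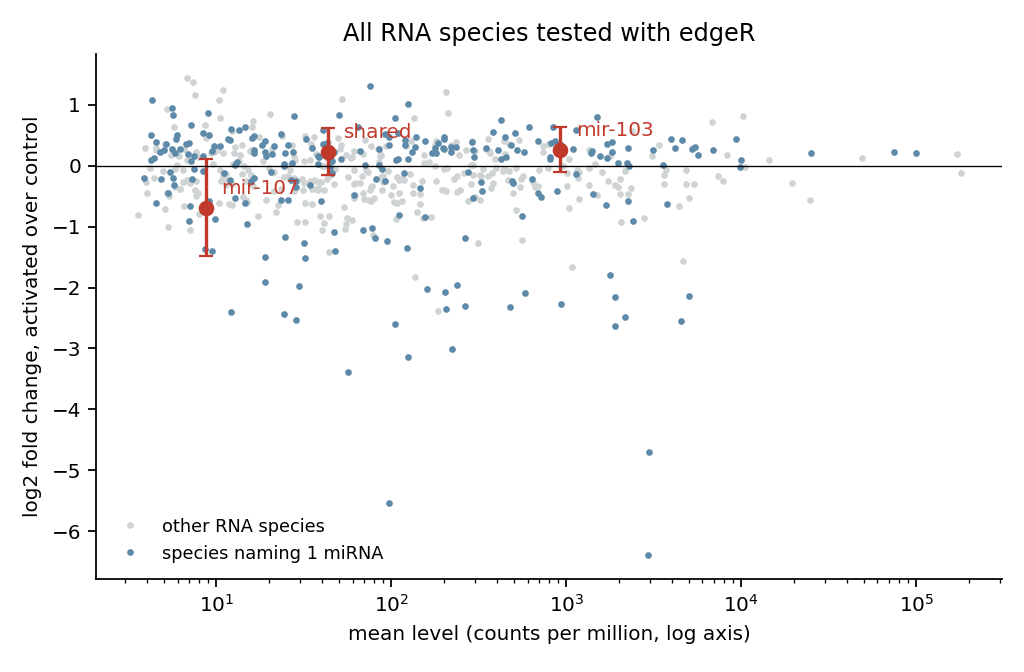
Log2 fold change of activated over control (vertical axis) against mean level in CPM (horizontal axis, log scale) for 587 RNA species tested with edgeR. Each point is 1 species, and the 3 member species are drawn in red with bars of 1 SE. The members lie among the other species that name 1 miRNA.

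By mean level in CPM, counts scaled by TMM-normalized library sizes, the summed members ranked 44th of 246 when set among species that name 1 miRNA only, at 974 ± 318 CPM (SD over 8 libraries). Just above lay mir-93 (1085 ± 225 CPM), mir-21a (1130 ± 885 CPM) and mir-449a (1138 ± 575 CPM). Just below lay mir-125b (929 ± 1619 CPM), mir-878 (919 ± 205 CPM) and mir-669c (909 ± 228 CPM). mir-125b ran from 257 to 4926 CPM over libraries, so its place here rests on its highest library. In activated mice it held 320 ± 61.5 CPM (SD, n = 4). The means of these 6 neighbours differ from that of the family by less than their own SD. For mir-125b, and for mir-21a at 403 to 3097 CPM, the highest library widens that SD, so their order by mean is uncertain. Taken alone, mir-103 ranked 45th of 247 and mir-107 ranked 211th, at 8.72 ± 9.82 CPM. Without control 4 mir-107 stood at 5.34 ± 2.39 CPM (SD over 7 libraries) and ranked 228th.

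The species naming 1 miRNA whose levels followed the family most closely were found from log2 CPM centred on the 8 libraries, by the root mean square difference, among 117 of at least 100 CPM. They were mir-743a (0.17), mir-362 (0.17), mir-194 (0.18), mir-17 (0.19) and mir-16 (0.20). The median over all candidates was 0.40 and the spread of the family itself 0.57. mir-107 differed from mir-103 by 0.75 on this measure, a value that rests on control 4: without that library it was 0.40, below the family spread of 0.55 in the same 7 libraries. With each group centred on its own mean, 4 of the 5 stayed among the nearest 5 and mir-16 came 6th.

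The miR-15/16 family carries the shifted seed and includes mir-16, a regulator of the cell cycle and the most abundant miRNA species here. Of its 9 listed members 8 were detected and 6 tested, with 5 higher, 1 lower and 0 called by edgeR (0 at an unadjusted p under 0.05; median log2 fold change 0.22, species naming 1 miRNA 0.14, all species -0.07). mir-16 stood at 92370 ± 31363 RPM in activated mice and 78264 ± 34689 RPM in controls (SD, n = 4 each), with a log2 fold change of 0.21 (SE 0.375). mir-15b had 22337 ± 2867 and 19860 ± 4332 RPM (log2 fold change 0.20, SE 0.245), and mir-195a 1318 ± 539 and 1081 ± 579 RPM (0.23, SE 0.455).

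Of 28 miRNAs known from metabolic control, all were detected and 25 tested, with 10 higher, 15 lower and 0 called by edgeR (1 at an unadjusted p under 0.05; median log2 fold change -0.28, species naming 1 miRNA 0.14, all species -0.07). The 8 most abundant had no adjusted p below 0.554. mir-30c, the highest, had 3784 ± 262 RPM in activated mice and 3220 ± 169 RPM in controls (SD, n = 4 each; log2 fold change 0.28, SE 0.213). mir-375, a miRNA of pancreatic islets, had 1234 ± 182 and 1102 ± 144 RPM (0.20, SE 0.231).
The log2 fold changes of the others were -0.63 for mir-26a, -0.42 for mir-27b, 0.11 for mir-130a, -0.51 for mir-148a and -0.45 for mir-26b. mir-143, which is also in the muscle list, had -4.70 (SE 1.72), with 194 ± 108 RPM in activated mice and 4428 ± 8496 RPM in controls (SD, n = 4 each). The summed list held 40654 RPM in control 4 and 8257 to 15572 RPM in the other 7 libraries.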

How the data were processed

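Small RNA of 8 sperm samples was analysed from 2 deposited tables per library. The authors prepared libraries from sperm RNA, trimmed reads, kept 15 to 45 nt with duplicates left in, and matched them without mismatches to mm10 and RNA databases with SPORTS and Bowtie. The first table gives counts of each distinct fragment, as deposited, not normalized. The second gives expected counts, which the authors obtained by dividing a read among the RNAs it matches.

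Member fragments were summed and scaled by library totals (RPM). Sums and shares went through exact permutation tests (two-sided, 70 assignments), adjusted by Benjamini-Hochberg. RNA species and fragments that reached 50 counts in 4 or more libraries entered edgeR 4.0.16 (TMM, quasi-likelihood) in R 4.3.3, checked on simulated data, with DESeq2 1.42.0 and apeglm 1.24.0 as the alternative. Log2 CPM used a prior count of 2. Rows without annotation, 9.53% to 23.7% of reads, stayed out of the species table. Python 3.11.15, numpy 2.4.6, pandas 2.3.3, scipy 1.17.1 and matplotlib 3.10.9 were used. Libraries held 9297271 to 23123740 reads. Without molecular identifiers reads do not count molecules, so the spread between mice was the error.

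Named species were the members, the 6 member fragments of highest mean RPM, the 3 miRNAs next above and below the family, the 5 most alike, the 8 most abundant of the metabolic list and the 3 most abundant of the miR-15/16 family. The members and lists were chosen with earlier results of these data known. Alternatives were other denominators, length limits, scalings and count minimums, DESeq2, a replicate block, the divided reads and leaving out each library. A further one took the mitochondrial rRNA set as a covariate (limit 0.5% of reads in the Mt_rRNA class). List sums use rows that name 1 listed miRNA only. Adding the unnamed fragments, ratios of geometric means, mir-107 level and likeness without control 4, and leaving out each library for the ratio of mir-103 to mir-107 were chosen after seeing the data.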

Additional observations from a re-analysis of the deposited data

Results flagged for a closer look

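Control 4 lay far from the other 3 controls in both mir-107 measures: 25.02 RPM, and 2.36% of the reads that name 1 member. In each case the gap to the nearest control took up most of the range of the group. Such a distance was looked for in 18 groups of 4 libraries, of which chance marks about 1 in 20. Sums of the epithelial and of the muscle and vessel miRNAs were also highest in control 4, and their part was not tested.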

How the results depend on the processing

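No setting brought a member sum, share or species past its threshold. The RPM ratio of the family was 1.19 to 1.31 over 7 settings and 1.01 to 1.44 with each library left out; mir-103 had 1.20 to 1.32 and 1.02 to 1.44, and the shared fragments 1.16 to 1.23 and 1.01 to 1.40. The difference in reads that reach the annotated end was 2.07 to 2.12 and 1.55 to 2.62 percentage points among named reads, and 0.0456 with the unnamed reads counted (exact permutation test, p = 1). The ratio of mir-103 to mir-107 reads was 127 to 168 with a library left out (exact sign-flip permutation test, p = 0.0156 in each). With the mitochondrial rRNA set as a covariate the log2 fold change of mir-103 was 0.37 (edgeR adjusted p = 0.552). The replicate block changed no call of a member. With 1 library left out the smallest exact p is 0.0571, and with the replicate block the smallest sign-flip p is 0.125. No sum or share could therefore pass 0.05 in those settings. Without activated 1 the named reads that reach the annotated end met that floor (2.59 percentage points, exact permutation test, p = 0.0571).

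mir-107 changed direction. Its RPM ratio ran from 0.514 to 1.76 with a library left out, the latter without control 4, and from 0.618 to 1.03 over 8 other settings. It was 1.03 with the replicate block (exact sign-flip permutation test, p = 1; the smallest possible is 0.125) and the same without pairing as a ratio of geometric means, so that value comes from averaging logs and not from the block. Its share differed by -0.534 to 0.0966 percentage points with a library left out. Its log2 fold change was 0.27 with the replicate block (edgeR adjusted p = 0.939, 0.684 to 0.939 over the alternatives with all libraries, 0.677 in the edgeR fit of the report) and -0.97 to 0.89 with a library left out, 0.89 being without control 4. DESeq2 gave no p for mir-107. The sample titles do not say what the replicate number stands for. Of 4 activated libraries 1 correlated best with the control of its number, and the same-number correlations ran from -0.507 to 0.525. Such values cannot tell whether libraries of the same number shared a batch. The cause of the turn in the edgeR fit was not tested.

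Counts of all calls moved. edgeR called 0 species in each setting, those that left out a library included, while DESeq2 called 0 higher and 3 lower. Of fragments edgeR called 61 higher and 0 lower. The counts were 195 and 45 with DESeq2, 0 and 0 with library size only, 202 and 0 with at least 10 counts, 1743 and 1057 with at least 1 count, 0 and 0 with the replicate block, and 100 and 7 with the mitochondrial rRNA covariate. With a library left out 0 to 58 were higher and 0 lower: 58 without control 1, 30 without activated 2, and 0 without any other. Library size only moved the median fragment log2 fold change from 0.01 to 0.12. Depth limits the values of mir-107, at 18 to 359 reads per library, and of the 5p arm, at 2 to 23.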

Other observations

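Fragments with other bases before the 21 common ones were also present, 167 of them with 818 reads. Of all reads that hold these bases with the annotated 3p beginning, they made up 0.452%, 0.454%, 0.514% and 0.550% in activated 1 to 4. In control 1 to 4 they made up 0.422%, 0.412%, 0.242% and 0.327%. Each activated library lay above each control, on 818 reads in all. How many like quantities separate in this way was not counted, and this difference was not tested.
The unnamed fragments annotated as piRNA that begin with the common bases were 0.0308% of all reads in control 3 and 0.111% in activated 1, the lowest and the highest library.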
